A study of Mus musculus with 24 samples.

Results

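Interferon-stimulated and antigen presentation genes were followed across mouse embryonic fibroblasts with and without the ubiquitin ligase CHIP, before and after heat shock. The 42 members were taken by name: sensors of viral RNA, transcription factors of the interferon response, the ISG15 system, antiviral effectors, interferon-inducible GTPases, further interferon-stimulated genes, 1 chemokine and the class I antigen presentation genes. A probe was found for 41 of them among the 27670 genes or other named features of the array, and no probe carried the name Xaf1. Those 41 genes had 67 of the 41174 probes. For 35 of them, among 13488 genes in all, the signal was strong enough to be tested.

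Embryonic fibroblasts are connective tissue cells; these came from embryos at day 13.5, of C57BL6 parents that each carried the CHIP (+/-) genotype. Cells were CHIP(+/+), called wildtype here, or CHIP(-/-), called CHIP null, which lack the Stub1 gene product, a ligase that works with heat shock chaperones. All 8 groups grew at 37 °C in 5% CO2 with β-mercaptoethanol added, and were then either left at 37 °C as controls or heated to 43 °C, with a label of 30 or 240 min that the controls carry too. There were 3 two-colour arrays per group and 24 in all, with fibroblast RNA in Cy5 and Universal Mouse Reference RNA, a commercial RNA pool, in Cy3. Levels are log2 ratios of Cy5 over Cy3, so a value of one probe is not set against that of another. The labels call the 3 samples of a group biological replicates. The number of embryos or cultures behind them is not given, so the p-values measure the spread between these samples.

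Interferons are secreted proteins that bind receptors on the cell surface. Type I interferon receptors signal through JAK1 and TYK2 to a complex that holds STAT2 and IRF9 and binds the interferon-stimulated response element (ISRE) in the promoters of its target genes, while interferon gamma acts through a shorter element called GAS. The targets block steps of viral replication, display peptides on MHC class I molecules, and include STAT2, IRF9 and the RNA sensors themselves, so that fibroblasts keep a low level of these genes even without infection.

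Stub1 had log2 ratios of -0.24 to -0.01 on the 12 wildtype arrays and of -2.43 to -1.72 on the 12 CHIP null arrays, in the order the labels give. Pairs of replicate arrays correlated at 0.981 to 0.995. The arrays labelled 30 min had 32.9 to 41.7% of probes well above background in Cy5 and those labelled 240 min had 44.1 to 48.6%; of the members with a probe, 22 to 30 and 32 to 36 were well above background. The 2 times were scanned as separate sets, so time and set cannot be told apart. All 24 columns of the authors' deposited value table match the scanner file of the other time label. No label or header settles which of the 2 holds, and times below are those of the scanner files. The 6 wildtype arrays labelled 30 min stood apart from the other 18 in genes looked at after their values were seen. Xist, the noncoding RNA that silences an X chromosome, was not well above background on those 6 arrays (log2 ratios of -3.49 to -2.94) and was so on the other 18 (-1.99 to -1.33). The Y-linked genes Ddx3y and Eif2s3y were well above background only on those 6. The wildtype cells of the 30 min set thus differ from those of the 240 min set, and from all CHIP null cells, in more than the labels give. The 240 min genotypes did not differ in this way, with a Xist difference of 0.03 (limma adjusted p = 0.917). The embryos behind each group are not given, so at 240 min too genotype and embryo of origin cannot be told apart.

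Promoter windows from RefSeq (GRCm38.p6, 250 bases before to 50 after the start of a gene) were found for 33 of the 42 members. The core of the ISRE, searched as a pair of GAAA with 2 bases of any kind between them on either strand, was present in the windows of 16 of the 33 members (48.5%), against 1079 of 27025 genes with a window (3.99%). GAS, searched as TTCNNNGAA, which reads the same on both strands, was in 9 (27.3%, against 9.55%). A heat shock element, searched as 3 alternating units of GAA and TTC with 2 bases between units on either strand, was in 1 (3.03%, against 0.662%), which was Bst2. Matches of different motifs may overlap. A match describes letters and is not a shown site. The search took these exact letters only, so a window without a match may still hold a variant of the element. The 170 bases before the start are printed for 4 members that were lower in CHIP null cells at 240 min and have the ISRE letters (Isg15, Bst2, Oas1a, Igtp), and for 2 members of antigen presentation that were not (B2m and H2-D1). These 6 were chosen after their values were seen. Each runs 5′ to 3′ along the strand of its gene, with ISRE matches in capitals.
Isg15, chr4:156200819-156200988, minus strand: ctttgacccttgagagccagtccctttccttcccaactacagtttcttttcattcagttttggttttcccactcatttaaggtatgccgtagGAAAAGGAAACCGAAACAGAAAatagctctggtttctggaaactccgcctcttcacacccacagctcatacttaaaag
Bst2, chr8:71537473-71537642, minus strand: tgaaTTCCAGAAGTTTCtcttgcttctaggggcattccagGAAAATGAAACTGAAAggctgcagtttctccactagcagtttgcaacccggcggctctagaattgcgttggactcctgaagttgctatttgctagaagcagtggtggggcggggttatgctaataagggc
Oas1a, chr5:120907526-120907695, minus strand: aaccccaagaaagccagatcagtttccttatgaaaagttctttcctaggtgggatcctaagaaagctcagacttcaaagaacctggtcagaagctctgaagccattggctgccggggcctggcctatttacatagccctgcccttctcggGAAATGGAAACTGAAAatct
Igtp, chr11:58199386-58199555, plus strand: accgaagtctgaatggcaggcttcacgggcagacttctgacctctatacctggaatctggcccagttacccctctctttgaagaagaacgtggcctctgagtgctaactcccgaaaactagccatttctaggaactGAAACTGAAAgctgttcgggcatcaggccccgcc
B2m, chr2:122147517-122147686, plus strand: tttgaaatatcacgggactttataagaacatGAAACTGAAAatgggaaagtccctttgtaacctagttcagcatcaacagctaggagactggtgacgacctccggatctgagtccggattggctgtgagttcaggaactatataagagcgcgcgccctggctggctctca
H2-D1, chr17:35262924-35263093, plus strand: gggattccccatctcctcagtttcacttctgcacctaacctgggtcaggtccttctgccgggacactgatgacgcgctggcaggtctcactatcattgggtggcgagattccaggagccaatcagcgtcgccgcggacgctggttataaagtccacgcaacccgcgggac
In Isg15, 3 overlapping matches began at -78, -72 and -66 from the start. Bst2 had 2, at -130 and -124, with a GAS match at -136 that overlaps the first, and its heat shock element letters, in capitals as well, lie on the opposite strand from -166 to -154. Matches began at -20 and -14 in Oas1a, at -34 in Igtp and at -139 in B2m, and no match was in the printed window of H2-D1.

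**Figure D1:**
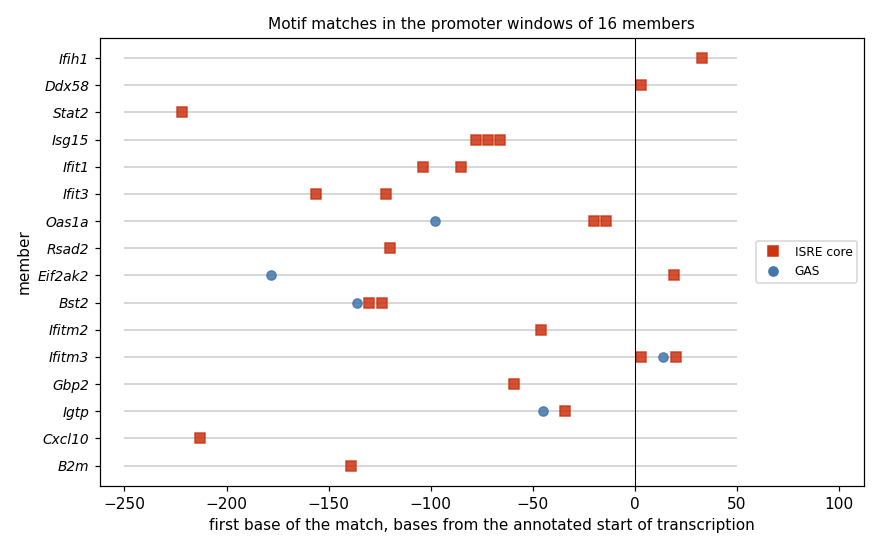
First base of each ISRE match (squares) and GAS match (circles), as bases from the gene start on the x axis, in the windows of the 16 members with an ISRE match, 1 line per member. Most ISRE matches lie before the start, and those of Isg15, Bst2 and Oas1a lie next to each other; GAS matches of members without an ISRE match and the heat shock element match of Bst2 are not drawn.

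Across the 8 groups, the 3 arrays of a group lay close together. The median standard deviation of a tested member within a group was 0.065 on the log2 scale, and the highest was 0.238, for Oas1a in heated wildtype cells at 240 min. The highest group mean was that of heated wildtype cells at 240 min for 16 of the 35 tested members, of heated CHIP null cells at 30 min for 9 and of wildtype controls at 240 min for 6. For 16 members the 2 highest groups were the heated and control wildtype cells of 240 min.

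**Figure D2:**
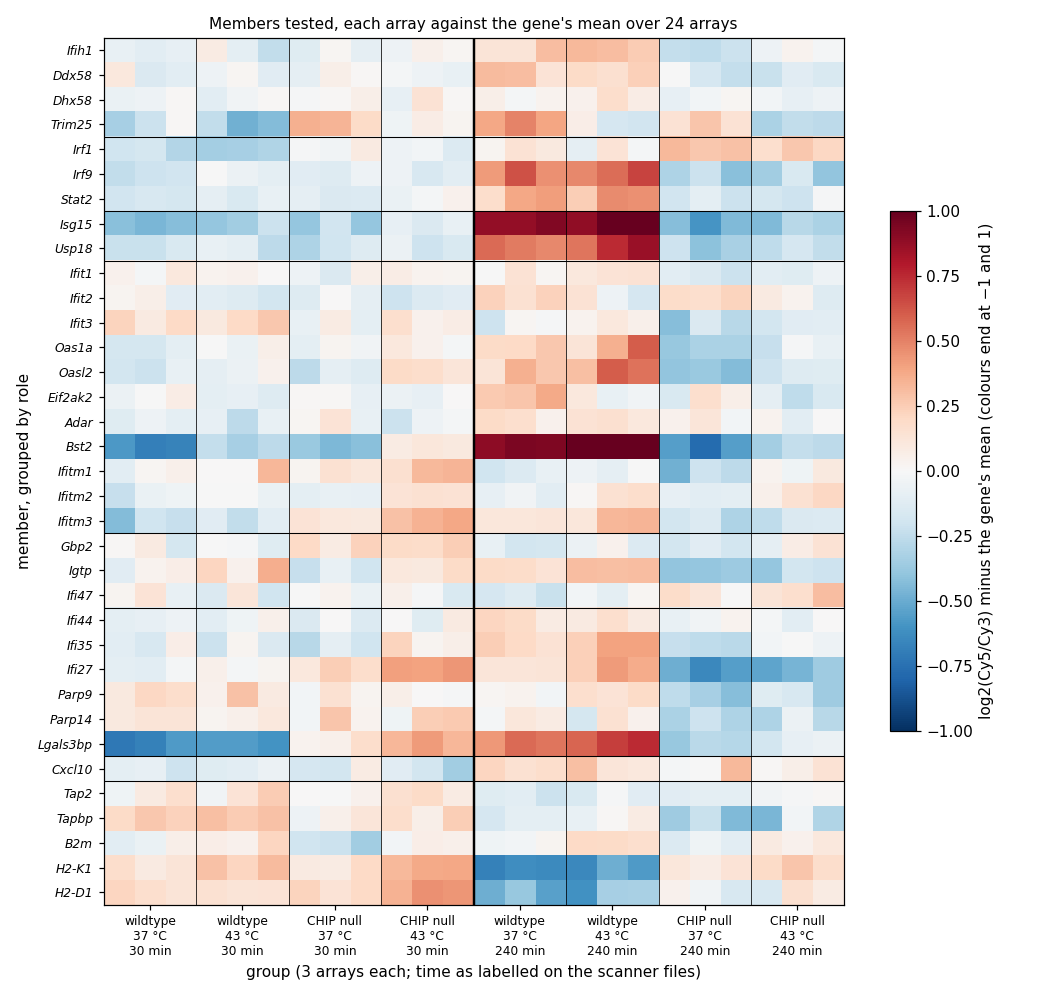
Log2 ratio of Cy5 over Cy3 of each tested member (lines of the map, ordered by role) on each of the 24 arrays (columns, by group), centred on the mean of the member over all arrays. Bst2, Isg15, Usp18 and Irf9 stand high on the 6 wildtype arrays of 240 min, and H2-K1 and H2-D1 stand low there.

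In unheated cells at 240 min, CHIP null fibroblasts had lower levels of most of the tested interferon-stimulated members and higher levels of the tested class I heavy chains. Of the 35 tested members, 21 were lower and 4 higher in CHIP null than in wildtype cells (limma adjusted p under 0.05, Benjamini-Hochberg over all 13488 genes). Of all genes, 8.26% were lower and 4.8% higher. The counts include Ifit1 and Ifi44 among the lower members and Ifi47 among the higher. Each was well above background on no array of its lower group and passed the filter through other groups. Their direction is thus no support of its own. The median difference of the members was -0.24, and that of all genes -0.02. For the 48 other tested genes of the pathway, described below, it was 0.005. The member median was -0.53 with the scanner software's ratio and -0.41 with a background offset of 10, since the offset of 50 used here draws dim genes towards 0. In 23 members every CHIP null array was below every wildtype array (19.2% of all genes), and in 4 every one was above (12.4%).

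Bst2 and Isg15 had the widest differences at the offset of 50. Bst2 encodes tetherin, a membrane protein that holds budding virus particles at the cell surface; its log2 ratios were 1.21, 1.25 and 1.24 in wildtype controls and -0.24, -0.46 and -0.24 in CHIP null controls. Isg15 encodes a ubiquitin-like protein that is attached to other proteins after interferon treatment, and it stood at 1.0, 1.0 and 1.04 against -0.30, -0.47 and -0.32. The groups are far apart in both genes. The difference was -1.55 ± 0.06 (SE; n = 3 and 3; limma adjusted p = 5.31e-17) for Bst2, a 2.92-fold lower ratio, and -1.38 ± 0.07 (limma adjusted p = 5.83e-14), 2.60-fold, for Isg15. Usp18, the protease that removes ISG15 from its targets and restrains the type I receptor, was at 0.59, 0.55 and 0.51 in wildtype and at -0.18, -0.38 and -0.30 in CHIP null cells, again without overlap, a difference of -0.84 ± 0.07 (limma adjusted p = 9.89e-10). Both measured members of the ISG15 system were lower. With the scanner software's ratio the differences were -1.71 for Bst2, -2.12 for Isg15, -2.05 for Usp18 and -1.60 for Oas1a and Ifit1, so the order of the members depends on the background correction.

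Of the transcription factors, Irf9 and Stat2, parts of the complex that binds the ISRE, were lower, and Irf1, an activator reached by both interferon pathways, was higher. Irf9 was at 0.24, 0.45 and 0.27 in wildtype and at -0.49, -0.40 and -0.60 in CHIP null controls (-0.82 ± 0.07, limma adjusted p = 4.99e-10). Stat2 was at -0.07, 0.13 and 0.17 against -0.45, -0.35 and -0.47 (-0.50 ± 0.07, limma adjusted p = 3.52e-06). Neither pair of groups overlapped. Irf1 was at -0.09, 0.03 and -0.01 in wildtype and at 0.21, 0.15 and 0.18 in CHIP null cells, 0.21 higher (limma adjusted p = 0.0193), but its other tested probe differed by 0.03 and was not called.

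Of the 4 RNA sensing genes, 3 were lower: Ifih1 (-0.43), which encodes the sensor MDA5, Ddx58 (-0.39), which encodes RIG-I, and Trim25 (-0.24), a ligase that modifies RIG-I. Trim25 was near the threshold (limma adjusted p = 0.0420), and its other probe gave -0.13 and was not called. With the slide as a block the Trim25 difference was 0.03. Dhx58, a further helicase of the family, differed by -0.06 and did not pass (limma adjusted p = 0.622).

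Among the 11 tested antiviral effectors 7 were lower and none higher. Besides Bst2 these were the oligoadenylate synthetase genes Oasl2 (-0.65) and Oas1a (-0.56), whose family makes the activator of an RNA-cutting enzyme, Ifitm3 (-0.33), which blocks entry of viruses through endosomes, Eif2ak2 (-0.28), the kinase PKR that stops translation, and the RNA-binding proteins Ifit3 (-0.22) and Ifit1 (-0.21). Oas1a stood at 0.05, 0.05 and 0.13 in wildtype and at -0.52, -0.46 and -0.46 in CHIP null controls. The groups of Oas1a do not overlap. Ifit1 was not well above background on any of these CHIP null arrays, so its level there is a bound: it was at least 1.14-fold higher in wildtype cells, taken as the mean of the brighter group over the lowest signal that was well above background. Ifit2, Adar, Ifitm1 and Ifitm2, with differences of -0.18 to -0.01, did not pass.

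All 6 tested genes of the further interferon-stimulated group were called lower. One of them, Ifi44, was well above background on 5 of the 24 arrays, so its direction is no support of its own. Lgals3bp, a secreted glycoprotein that binds galectins, was at 0.03, 0.16 and 0.12 in wildtype and at -0.79, -0.68 and -0.70 in CHIP null controls, 0.83 lower on the log2 scale (limma adjusted p = 3.88e-11). Ifi27, a small membrane protein, was at -0.76, -0.76 and -0.75 against -1.37, -1.53 and -1.43. Neither gene's groups overlap. A second probe gave a difference of -0.67 beside the -0.69 of the chosen one. It was given to Ifi27 by the symbol in the file, the chosen one by accession. In controls at 30 min the 2 parted, at 0.00 and 0.25. Whether the second probe reads a related gene was not tested. The others were Ifi35 (-0.45), the partners Parp9 (-0.35) and Parp14 (-0.34), which are enzymes of ADP-ribosylation, and Ifi44 (-0.19; at least 1.12-fold higher in wildtype cells, since it was not well above background on any CHIP null control array of that time).

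Interferon-inducible GTPases attack the vacuoles of intracellular parasites, and the 3 tested members did not move together. Igtp was lower, with -0.87, -0.88 and -0.92 in wildtype and -1.46, -1.45 and -1.42 in CHIP null controls. Ifi47 was higher by 0.27, at least 1.15-fold, since no wildtype control array was well above background, and Gbp2 differed by -0.02 (limma adjusted p = 0.921). Cxcl10, the one chemokine, which draws T cells, differed by -0.08 (limma adjusted p = 0.615).

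Antigen presentation went the other way or showed no call: 2 of its 5 tested genes were higher and none lower. H2-K1 and H2-D1 encode the heavy chains that display peptides. H2-K1 was at -2.00, -1.95 and -1.97 in wildtype and at -1.22, -1.25 and -1.19 in CHIP null controls, a difference of 0.75 ± 0.05 (limma adjusted p = 3.28e-11). H2-D1 was at -1.42, -1.31 and -1.47 against -0.89, -0.96 and -1.09, which is 0.42 higher (limma adjusted p = 0.000192). The groups are apart in both. H2-K1 has 2 other tested probes, which gave 0.23 and 0.26, so the size of its difference depends on the probe, and class I heavy chains are near-identical copies that a probe may not tell apart. B2m, the shared light chain (-0.08), Tap2, a subunit of the peptide transporter (0.04), and Tapbp, which loads peptides onto the heavy chain (-0.22; limma adjusted p = 0.0651), did not pass the test. H2-K1, H2-D1, Tap2 and Tapbp lie on chromosome 17, as do Stub1 and Eif2ak2, an antiviral effector that was lower.

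**Figure D3:**
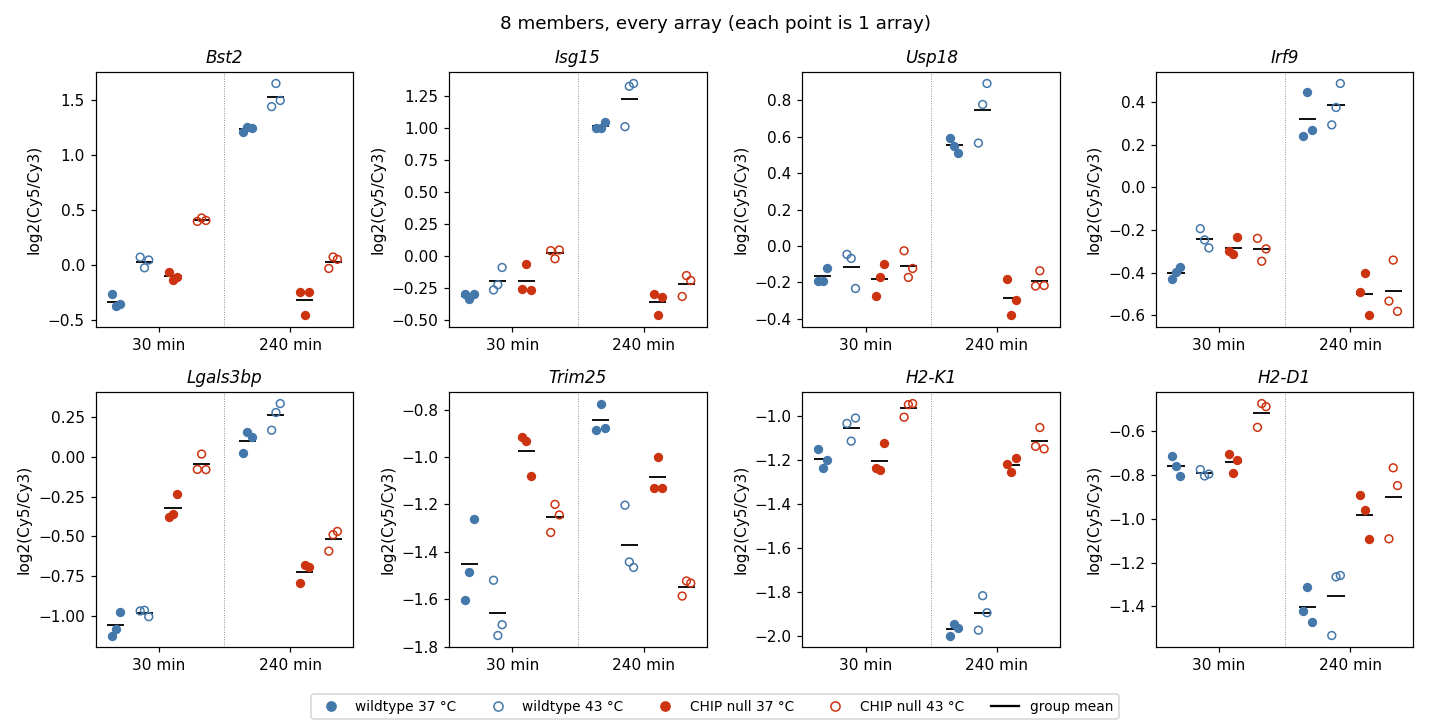
Log2 ratio of Cy5 over Cy3 on each array (points) with the mean of each group (lines) for 8 members, chosen after their values were seen, in the 8 groups on the x axis. At 240 min the wildtype points of Bst2 (1.21 to 1.65) lie above all CHIP null points (-0.46 to 0.07), while those of H2-K1 (-2.00 to -1.82) lie below them (-1.25 to -1.05).

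The ISRE letters and the difference can be set side by side. Of the tested members with those letters in their window, 11 of 15 were lower in CHIP null controls at 240 min and none higher, with a median difference of -0.33. Of those with a window but without the letters, 6 of 14 were lower and 4 higher, with a median of -0.18. Of all genes tested, 8.26% were lower and 4.8% higher. No test was made, since both the letters and the lists belong to genes picked for one response.

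Markers of other cell types moved with the genotype too. Of 13 tested macrophage genes, 8 were lower and none higher in CHIP null controls at 240 min, with a median difference of -0.29, and the summed Cy5 signal of the 18 genes listed was 1689 to 1834 in wildtype and 1254 to 1304 in CHIP null arrays. Of the 18, 13 were well above background on all 3 wildtype and 10 on all 3 CHIP null control arrays of that time, while Ptprc, Spi1 and Itgam, which help define such cells, were not on any of the 24 arrays. The 2 tested endothelial and 5 epithelial markers were also lower. Of 12 fibroblast markers, 11 or 12 were well above background on all 3 arrays of each group, and 6 were higher and 2 lower in CHIP null controls at 240 min, with a median difference of 0.20. In RNA from whole cultures, fewer cells of a type and less RNA per cell cannot be told apart, and the part of other cells in these differences was not tested.

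At 240 min in heated cells the same question gave 17 members lower and 4 higher in CHIP null cells (8.3% of all genes lower, 4.66% higher), with a median of -0.22. The counts again include Ifit1 among the lower and Ifi47 among the higher members. These were well above background on 6 and 8 of the 24 arrays, so their direction is no support of its own. Bst2 was at 1.44, 1.65 and 1.49 in wildtype and at -0.03, 0.07 and 0.05 in CHIP null cells, and Isg15 at 1.01, 1.33 and 1.35 against -0.32, -0.15 and -0.19. No heated CHIP null array reached the lowest heated wildtype array in either gene. The differences were -1.49 ± 0.06 (limma adjusted p = 1.78e-16) and -1.45 ± 0.07 (limma adjusted p = 1.84e-14). Usp18 (-0.94), Irf9 (-0.87), Ifi27 (-0.79), Lgals3bp (-0.78), Oasl2 (-0.64), Igtp (-0.57), Stat2 (-0.52) and Oas1a (-0.47) were lower as well. H2-K1 (0.78), H2-D1 (0.45), Ifi47 (0.23) and Irf1 (0.21) were higher, and Tapbp, which missed the threshold without heat, was 0.27 lower (limma adjusted p = 0.0223). Its other tested probe gave -0.09 and was not called, and without CHIP null heated replicate 1 the Tapbp difference was -0.17; the call was lost in 4 of 6 fits that left out 1 array. Trim25, Eif2ak2, Parp14, Ifit3 and Ifi44 were called without heat and missed the threshold with it, but no member's genotype difference was itself shown to change with heat. Macrophage markers were lower for 6 of 13 and higher for none. When arrays were centred on their medians, the share of higher genes among all called genes fell from 36 to 8.11%, the median of all genes moved from -0.01 to -0.13, and 21 members were lower and 1 higher. Of all 13488 genes, 1208 were called under that centring, 98 of them higher.

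Arrays of both genotypes at 240 min shared 1 slide, with 2 heated wildtype and 2 control CHIP null arrays. On it Bst2 was at 1.65 and 1.49 against -0.24 and -0.46, Isg15 at 1.33 and 1.35 against -0.30 and -0.47, and H2-K1 at -1.82 and -1.90 against -1.22 and -1.25. In each gene both wildtype arrays lay clear of both CHIP null arrays on that slide, where genotype and heat differ together. No slide held both genotypes of one treatment. With the slide as a fixed block in the model, 13 members were lower and 1 higher in controls, and 10 lower and 2 higher in heated cells. Of all 13488 genes, that fit called 470 in controls, 133 of them higher, and 369 in heated cells, 110 of them higher. Such a fit compares the genotypes only through chains of shared slides. Calls that held under each alternative that could test them numbered 12 of 25 in controls: Bst2, Isg15, Usp18, Lgals3bp, Irf9, Ifi27, Oasl2, Oas1a, Igtp, Stat2 and Ifi35 lower, and H2-K1 higher. In heated cells 11 of 21 held.

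**Figure D4:**
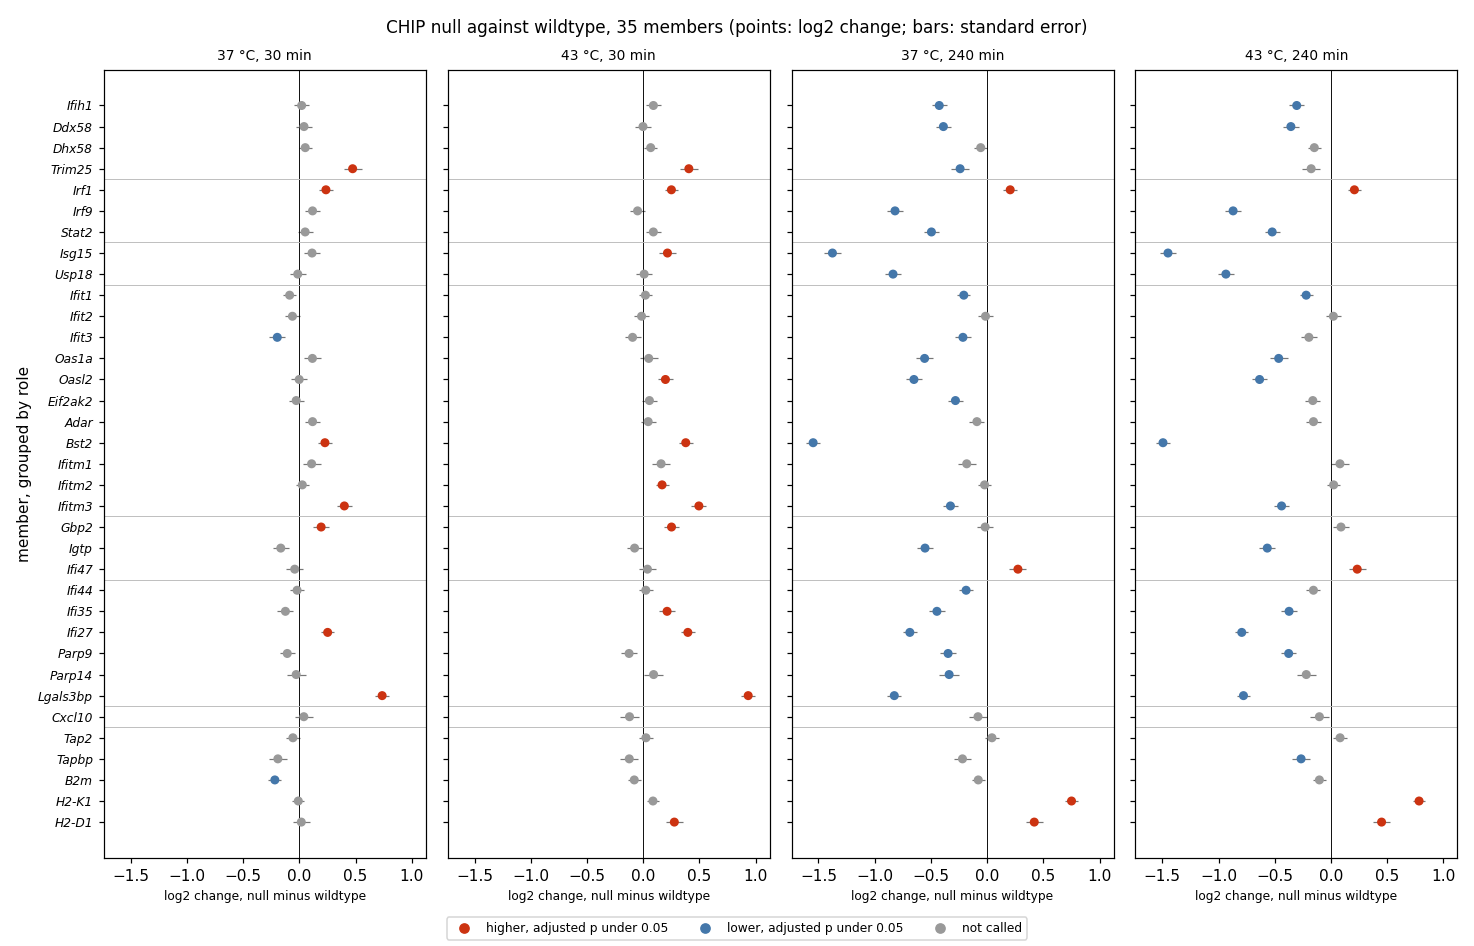
Difference CHIP null minus wildtype in log2 ratio of Cy5 over Cy3 (x axis, with the standard error) for each tested member (y axis, by role), in control and heated cells of both times. At 240 min, Bst2 (-1.55 in controls) and Isg15 (-1.38) lie farthest to the left and H2-K1 (0.75) farthest to the right; at 30 min the largest value is that of Lgals3bp (0.74 in controls, 0.93 in heated cells).

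At 30 min the picture differed. In controls 7 members were higher and 2 lower in CHIP null cells (14.7% of all genes higher, 19.4% lower), and in heated cells 12 were higher and none lower (14.2% higher, 13.3% lower). Groups did not overlap for 9 members higher and 3 lower in controls (20.6% and 24% of all genes) and for 13 higher and 1 lower in heated cells (20.2% and 18.6%). These comparisons use the 6 wildtype arrays that stood apart in Xist and the Y-linked genes, and the part of that difference was not tested.

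Lgals3bp led at 30 min, with -1.13, -1.08 and -0.98 in wildtype and -0.38, -0.36 and -0.24 in CHIP null controls. Its difference was 0.74 ± 0.06 (limma adjusted p = 1.04e-10) and, after heat, 0.93 ± 0.06 (limma adjusted p = 7e-13), opposite in sign to that of 240 min. Trim25 was at -1.60, -1.49 and -1.26 against -0.92, -0.93 and -1.08, and Ifitm3 at 0.33, 0.56 and 0.53 against 0.90, 0.86 and 0.86. In all 3 genes every CHIP null control array lay above every wildtype one. The differences of Trim25 were 0.47 and 0.41, and those of Ifitm3 0.40 and 0.50, in control and heated cells. These 3 genes were the calls of the controls that held under every alternative. Ifi27 (0.25 and 0.40), Bst2 (0.23 and 0.38), Irf1 (0.24 and 0.25) and Gbp2 (0.19 and 0.25) were smaller but called in both; the other Ifi27 probe gave 0.00 in controls, and the other Irf1 probe gave 0.013 in control and 0.013 in heated cells and was not called. The Gbp2 difference in controls was 0.12 without wildtype control replicate 3, and its call was lost in 3 of 6 fits that left out 1 array. Heated cells alone gave calls for H2-D1 (0.28), Isg15 (0.22), Ifi35 (0.21), Oasl2 (0.20) and Ifitm2 (0.17).

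B2m (-0.22) and Ifit3 (-0.20) were the members lower in CHIP null controls at 30 min. The other 2 B2m probes gave -0.15 and 0.08, and under median centring the B2m difference was 0.01. In these controls all 13 tested macrophage markers were lower in CHIP null cells (median -0.46), with a summed Cy5 signal of 5389 to 5966 in wildtype and 1840 to 1881 in CHIP null arrays, and 3 of 13 were lower in heated cells. Median centring moved the share of higher genes among all called genes from 43.1 to 66.9% in controls and from 51.8 to 29% in heated cells, where it left 4 of the 12 calls of members. With the slide as a block 3 members were higher in controls and 6 in heated cells. Of all 13488 genes, 1639 were then called in controls, 657 of them higher, and 1719 in heated cells, 942 of them higher.

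Whether the genotypes differed unlike at the 2 times was tested in the controls. The difference at 240 min minus that at 30 min was below 0 for 15 members and above 0 for 3 (8.92% and 9.14% of all genes). It was -1.78 for Bst2 (limma adjusted p = 5.76e-15), -1.56 for Lgals3bp, -1.49 for Isg15, -0.94 for both Ifi27 and Irf9, -0.82 for Usp18, and 0.76 for H2-K1 (limma adjusted p = 2.52e-08), whose 2 other probes gave 0.17 and 0.30 and were not called. Bst2 shows how this came about in the arrays: its wildtype controls were at -0.26, -0.37 and -0.35 at 30 min, within the range of the CHIP null controls at 240 min, and at 1.21, 1.25 and 1.24 at 240 min. The Isg15 controls of wildtype cells were at -0.30, -0.34 and -0.30 at 30 min and overlapped the CHIP null controls at 240 min. Over all genes, median centring moved the share of differences above 0 among those called from 50.6 to 38%.

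Between the controls of the 2 times, 21 members were higher and 6 lower at 240 min in wildtype cells (27.9% and 35.6% of all genes), and 3 were higher and 16 lower in CHIP null cells (19% and 29.6%). The higher members of wildtype cells include Ifi44, Cxcl10 and Oas1a, well above background on 5, 13 and 14 of the 24 arrays. Ifi47, among the lower members, was so on 8. Per array, 22 to 30 members were well above background at 30 min and 32 to 36 at 240 min. The direction of such dim members is thus no support of its own. In wildtype cells Bst2 rose by 1.56, Isg15 by 1.33, Lgals3bp by 1.16, Irf9 and Usp18 by 0.72, Trim25 by 0.60 and Stat2 by 0.50, while H2-K1 fell by 0.78 and H2-D1 by 0.64. In CHIP null cells Ifi27 fell by 0.74, Ifitm1 by 0.42, Lgals3bp by 0.40 and Bst2 by 0.21, and Irf1 rose by 0.28. Macrophage markers fell for 13 of 13 in wildtype and for 12 of 13 in CHIP null cells. Time and scan set cannot be told apart, the wildtype groups of the 2 times differ in Xist and the Y-linked genes, and the value table has the times the other way round, which would turn each sign. Median centring moved the share of higher genes among all called genes from 44 to 55.5% in wildtype cells, and the scanner software's log ratio moved it from 39.1 to 50.7% in CHIP null cells.

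The members' differences after heat shock were smaller than the largest ones between genotypes. In wildtype cells 2 were higher and none lower at 30 min (6.77% of all genes higher, 7.79% lower), and 8 were higher and 3 lower at 240 min (18.8% and 12.7%). In CHIP null cells 12 were higher and 1 lower at 30 min (22.6% and 12.6%), and 10 higher and 3 lower at 240 min (24.5% and 14.5%). Among the 35 tested members, the share called higher was near that of all genes in wildtype cells at both times. The same held in CHIP null cells at 240 min. Those counts are thus no result about the members. Member differences ran from -0.52 to 0.51 over the 4 comparisons.

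Bst2 was called higher after heat in each of the 4, by 0.36 and 0.29 in wildtype and 0.51 and 0.35 in CHIP null cells at 30 and 240 min. At 30 min the CHIP null arrays stood at -0.06, -0.14 and -0.11 without heat and at 0.40, 0.43 and 0.41 with it, with no overlap (limma adjusted p = 2.58e-06). Under median centring Bst2 was not called in any of them, with differences of 0.22 and 0.26 in wildtype and 0.15 and 0.02 in CHIP null cells. Oasl2 was higher in 3 comparisons (0.23 in wildtype at 240 min, 0.32 and 0.25 in CHIP null cells), as were Ifitm2 (0.19, 0.23 and 0.23), Lgals3bp (0.16, 0.28 and 0.21) and B2m (0.20, 0.28 and 0.18). Igtp was higher at 30 min in both genotypes (0.21 and 0.30). In wildtype cells at 240 min Ifi27 (0.22), Isg15 (0.21) and Usp18 (0.19) were also higher, but with the slide as a block Isg15 was -0.0035 there. In CHIP null cells at 240 min Ifitm1 (0.35), Oas1a (0.23), Ifih1 (0.23) and Gbp2 (0.20) were. One of the 2 other B2m probes gave -0.08, -0.13 and -0.12 in the 3 comparisons in which B2m was higher.

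The chosen probe of Trim25 was lower after heat. Its wildtype arrays at 240 min were at -0.88, -0.77 and -0.88 without heat and at -1.20, -1.44 and -1.47 with it, and its CHIP null arrays at -1.13, -1.0 and -1.13 against -1.59, -1.52 and -1.53. No heated array reached a control array of its genotype. The differences were -0.52 (limma adjusted p = 2.49e-05) and -0.46 (limma adjusted p = 8.47e-05) at 240 min, -0.28 in CHIP null cells at 30 min and -0.21 in wildtype cells at 30 min, which did not pass (limma adjusted p = 0.0731). This probe's 3 heat calls held under every alternative, but the other tested Trim25 probe was not called in any heat comparison: it gave 0.11 in wildtype cells at 240 min, opposite in sign, and -0.12 and -0.13 in CHIP null cells at 240 and 30 min. The heat effect on Trim25 thus rests on 1 probe. Eif2ak2 (-0.31 and -0.19) and Ifit2 (-0.23 and -0.19) were lower at 240 min in wildtype and CHIP null cells. Of the antigen presentation genes, H2-K1 (0.24) and H2-D1 (0.23) were higher in CHIP null cells at 30 min, and both were below 0 under median centring.

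The direction of the weaker heat effects rests on the scaling. With arrays centred on their medians, no member was called higher in any of the 4 heat comparisons, and in CHIP null cells 7 of the 13 calls at 30 min and 5 of the 13 at 240 min turned sign, those of B2m, Ifitm2 and Lgals3bp at both times. The share of higher genes among all called genes then fell from 46.5 to 4.20% and from 59.6 to 4.32% in wildtype cells at 30 and 240 min, and from 64.2 to 0.799% and from 62.7 to 0.405% in CHIP null cells. With the log ratio of the scanner software the share was 44% in wildtype cells at 240 min, and 46 and 41.7% in CHIP null cells at 30 and 240 min. Under median centring the median of all genes in CHIP null cells moved to -0.18 at both times. Relative to that shift, the members' own medians of -0.08 and -0.11 were above that of all genes. Macrophage markers rose with heat at 240 min, 6 of 13 in wildtype and 10 of 13 in CHIP null cells. At 30 min 7 of 13 rose and 1 fell in CHIP null cells, where 6 of 12 fibroblast markers rose too, and 8 of 13 fell in wildtype cells; the genotype by heat interaction at 30 min called 8 of 13 macrophage markers. Their part was not tested. Leaving out single arrays moved the calls of wildtype cells at 240 min from 11 to 5 (without heated replicate 3), 6 (without heated replicate 2) and 7 (without control replicate 1 or 3), and those of CHIP null cells at 240 min from 13 to 8 (without control replicate 1 or heated replicate 3). The 2 calls of wildtype cells at 30 min became 1 without control replicate 2 or heated replicate 3.

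**Figure D5:**
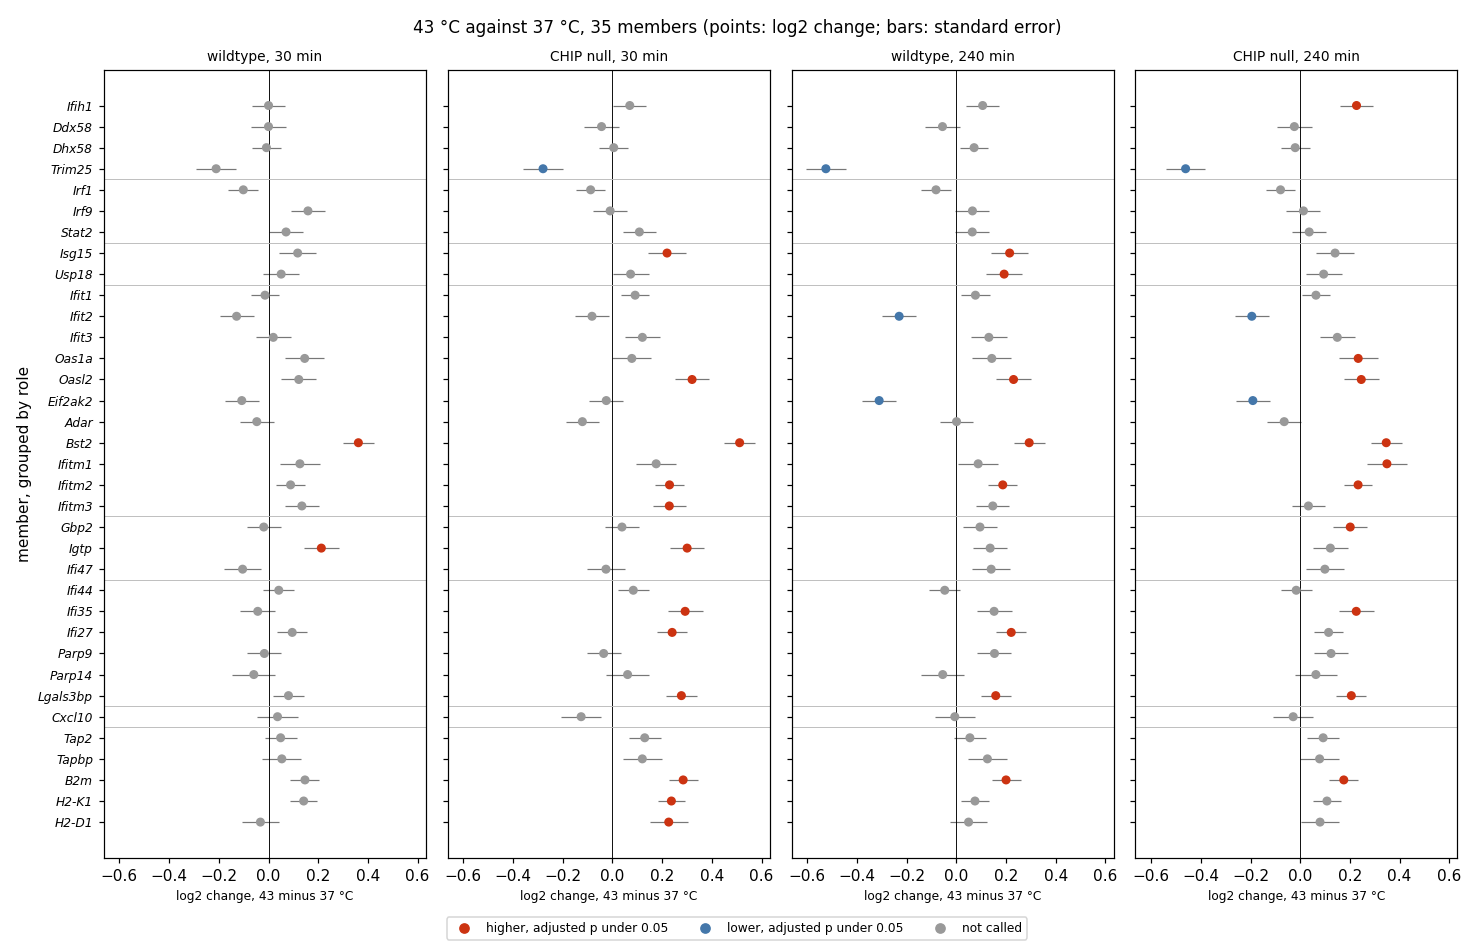
Difference heated minus control in log2 ratio of Cy5 over Cy3 (x axis, with the standard error) for each tested member (y axis, by role), in wildtype and CHIP null cells at both times. Values run from -0.52 to 0.51; Trim25 lies farthest to the left at 240 min, and Bst2 lies to the right of 0 in all 4 comparisons.

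Whether heat acted unlike in the 2 genotypes was tested as an interaction. No member passed at 30 min (0.445% of all genes) or at 240 min (0% of all genes) in limma, the tool used; at an unadjusted p under 0.05 there were 3 and 1. Bst2, Isg15, Usp18, Irf9, Ifi27 and Lgals3bp were lower in CHIP null cells at 240 min both with and without heat, and a difference between those 2 states was not shown for any of them.

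Other genes of the pathway were taken from a list of 78, of which 70 had a probe and 48 were tested. In controls at 240 min 9 were lower and 6 higher in CHIP null cells (8.26% and 4.8% of all genes). Their median difference was 0.005, with 24 above 0 and 24 below. The lower levels of the members thus did not extend to this list as a whole. Rtp4, an interferon-stimulated chaperone of membrane receptors, was 1.65 lower on the log2 scale (limma adjusted p = 1.3e-14), the GTPase genes Gbp3 (-0.59) and Irgm2 (-0.52) were lower, and H2-Q7, a further class I heavy chain gene, was higher (0.49). The receptor gene Ifngr2 was higher (0.27), while Ifnar1 (-0.10), Ifnar2 (0.19), Ifngr1 (0.02), Jak1 (0.14), Tyk2 (-0.02) and Irf3 (0.02) did not pass. In heated cells at 240 min 9 were lower and 8 higher, led by Rtp4 (-1.54).

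At 30 min 9 of these other genes were higher and 6 lower in CHIP null controls, and 13 higher and 4 lower in heated cells (of all genes, 14.7% higher and 19.4% lower in controls, 14.2% and 13.3% in heated cells). Heat raised 9 and lowered 2 in wildtype cells at 30 min, and raised 12 and lowered 6 at 240 min (of all genes, 6.77% and 7.79%, then 18.8% and 12.7%). In CHIP null cells it raised 15 and lowered 3 at 30 min, and raised 23 and lowered 6 at 240 min (of all genes, 22.6% and 12.6%, then 24.5% and 14.5%). Under median centring none of the list was called higher with heat in any of the 4 comparisons, and 8 of 18 calls at 30 min and 19 of 29 at 240 min in CHIP null cells turned sign. Without that centring, Ifnar2 was higher with heat in each comparison (0.28, 0.24, 0.27 and 0.27 in wildtype at 30 and 240 min and CHIP null at 30 and 240 min) and Ifngr1 lower (-0.26, -0.32, -0.27 and -0.37).

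Several of the best known targets could not be tested. On none of the 24 arrays were Mx1, Mx2, Oas2 or Rsad2 well above background, and Tap1 was on 4, never on all 3 of a group. Irf7, which amplifies the type I response, was well above background on 2 of 3 control and 2 of 3 heated wildtype arrays at 240 min and on no other array. Its log2 ratios averaged -0.09 ± 0.06 and 0.03 ± 0.03 (SD, n = 3) there, and -0.28 ± 0.03 and -0.16 ± 0.02 in CHIP null controls and heated cells of the same time, where the signal gives only a bound.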

How the data were processed

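Per the labels' protocols, amplification and Cy5 labelling started from 500 ng of total RNA, and every array also received a common reference in Cy3. Per the file headers, a GenePix scanner read slides of 4 arrays, and Agilent Feature Extraction 9.1.3.1 measured the spots, and the deposited spot and local background intensity values are uncorrected. The log10 ratio of Cy5 over Cy3 in the same files is dye-normalized per the file headers and was an alternative. The authors' deposited value table (28139 probes, unit not stated, treated as a score) has column medians of -0.05 to 0.02. Set against the scanner files (r of at least 0.998 with the other time label, at most 0.900 with the same label), its values were the log10 ratio over the natural log of 2, in the direction Cy5 over Cy3, and heat columns had the mean of their controls subtracted.

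In limma 3.58.1 (R 4.3.3), background was corrected with normexp (offset 50), which draws dim probes towards a log2 ratio of 0, and arrays were normalized by loess with control spots at weight 0. Of 43379 spots, 333 outliers were left out. Probes were named by accession through RefSeq GRCm38.p6 (22951), or else by symbol (6659) or synonym (3109); 8455 kept the name in the file. The brightest probe stood for a gene, and a gene was tested if, for 1 group or more, its Cy5 signal was well above background on each of the 3 arrays. One model of 8 group means over 24 arrays gave 13 comparisons, with Benjamini-Hochberg adjustment over 13488 genes and a threshold of 0.05; 10 genes without a value in a group were left out. Comparisons share arrays. The number of arrays limits the precision. The steps were tested on simulated data. Members, lists and markers were chosen with earlier results of these data known. All members could be named; of other pathway genes, the 4 called with the largest change per comparison, plus Irf3 and receptor and kinase genes. An item withheld for evaluation is not reported here. Samples with the same replicate number were not treated as pairs. Alternatives were another offset, median centring, the scanner software's ratio, the value table, other filters, the mean of probes, slide and replicate blocks, separate fits and leaving out each array. Columns of the value table were put under the time label of the matching scanner file, and control means were added back to heat columns. It thus repeats the scanner software's ratio and is not a separate check.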

Additional observations from a re-analysis of the deposited data

Results flagged for a closer look

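In the controls, the difference CHIP null minus wildtype was not the same at the 2 times for 18 members, by the interaction test over all genes (limma, adjusted p under 0.05). The difference at 240 min minus that at 30 min was -1.78 for Bst2, -1.56 for Lgals3bp, -1.49 for Isg15, -0.94 for Ifi27, -0.94 for Irf9, -0.82 for Usp18, -0.73 for Ifitm3 and -0.71 for Trim25. It was -0.67 for Oas1a, -0.65 for Oasl2, -0.55 for Stat2, -0.45 for Ifih1, -0.43 for Ddx58, -0.39 for Igtp and -0.32 for Ifi35. It was above 0 for Ifi47 (0.31), H2-D1 (0.40) and H2-K1 (0.76). The 2 other H2-K1 probes gave 0.17 and 0.30 and were not called, and the Ifi47 call was lost in 8 of 12 fits that left out 1 array and held in 7 of 21 alternatives. Lgals3bp, Trim25, Ifitm3, Ifi27 and Bst2 were called in opposite directions at the 2 times, higher in CHIP null controls at 30 min and lower at 240 min. The lower call of Trim25 held in 5 of 16 alternatives and was lost in 5 of 6 fits that left out 1 array, with 0.032 under the slide block, and the second Ifi27 probe gave -0.0023 at 30 min. Time cannot be told apart from scan set, and the part of the difference in Xist and the Y-linked genes between the 2 sets of wildtype arrays was not tested.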

How the results depend on the processing

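Some counts of called members moved by over 1.5 times. With probes well above background on all 24 arrays, which leaves fewer genes, they were 14 (from 25) and 13 (from 21) for genotype at 240 min in control and heated cells, 8 for heat in CHIP null cells at 240 min, and 15 and 11 for time in wildtype and CHIP null controls. The slide as a fixed block gave 14 and 12 for genotype at 240 min and 3 and 6 at 30 min (control, heated). For heat it gave 1 in wildtype cells at 240 min, and 6 and 5 in CHIP null cells at 30 and 240 min. Median centring gave 4 for genotype in heated cells at 30 min, and for heat 1 and 3 in wildtype and 3 and 7 in CHIP null cells at 30 and 240 min. The scanner software's ratio gave 15 for genotype in controls at 30 min and 6 for time in CHIP null controls. For heat it gave 8 and 4 in wildtype cells at 30 and 240 min, and 8 in CHIP null cells at 240 min. The value table holds that same ratio and was put under the scanner files' time labels. Its counts were 15 for genotype, 6 for time, and 7, 4 and 8 for heat. An offset of 10 gave 4 and 6 for heat in wildtype cells and 12 for time in CHIP null controls. Heat in wildtype cells at 30 min gave 1 without the filter and 1 in a separate fit.

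Signs turned under median centring for B2m between genotypes in controls at 30 min (0.010), for heat in CHIP null cells at 30 min in B2m (-0.16), H2-D1 (-0.20), H2-K1 (-0.17), Ifi27 (-0.16), Ifitm2 (-0.17), Ifitm3 (-0.20) and Lgals3bp (-0.13), and at 240 min in B2m (-0.11), Ifi35 (-0.072), Ifitm2 (-0.076), Lgals3bp (-0.14) and Oasl2 (-0.030). They turned with the slide as a block for Isg15 (heat, wildtype, 240 min: -0.0035) and Trim25 (genotype, controls, 240 min: 0.032). The scanner software's ratio turned time effects in CHIP null controls of Ifih1 (0.18), Ifit3 (0.12), Igtp (0.50), Oasl2 (0.44) and Parp9 (0.22), and of Ifit3 in wildtype controls (0.017). The value table, put under the scanner files' time labels, holds that same ratio and so turned the same ones. For time in CHIP null controls, Igtp was 0.014 with an offset of 10 and B2m -0.0080 as the mean of its probes. The cause was not tested.

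Leaving out 1 array gave 1 to 3 calls and 5 to 14 for heat in wildtype cells at 30 and 240 min, 11 to 13 and 8 to 14 in CHIP null cells, 7 to 10 and 19 to 25 for genotype in controls, 8 to 11 and 19 to 20 in heated cells, 16 to 19 for genotype by time, 25 to 27 and 16 to 19 for time in wildtype and CHIP null cells, and 0 for both genotype by heat tests. Samples with the same replicate number did not deviate together throughout (r of -0.25 to 0.57). The highest values were those of replicates 1 and 3 between the genotypes in heated cells at 240 min (0.57 and 0.45). Whether such samples share more than a number is not settled. With the replicate number as a block the counts were 2, 11, 14 and 13 for heat (wildtype and CHIP null at 30 and 240 min). They were 10, 25, 12 and 22 for genotype (controls at 30 and 240 min, heated cells at 30 and 240 min). They were 0 for both genotype by heat tests, 20 for genotype by time, and 28 and 19 for time. Dim members are limited by signal over background: 6 of 41 could not be tested.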
